A study of Mus musculus with 12 samples.

Results

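A cassette of several skipped exons is a run of 2 or more neighbouring exons that some transcripts of a gene hold and others leave out as a block. The catalogues of 12 BV-2 libraries listed 4896 distinct cassettes of this kind, among 54804 distinct splicing events of all types (single skipped exons, retained introns and exons of variable ends among them). They were chosen by event type: 4129 were listed in the exact form, in which the exons beside the cassette have the same inner ends in the transcripts compared, and 767 in the approximate form. Cassettes were counted as distinct by form, gene, chromosome, start and end, and fell in 2399 of the 14275 genes that the catalogues name.

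BV-2 is an immortalised mouse microglial line. The 4 groups held 3 libraries each: cells given LPS with NMN (LPS+NMN), cells given LPS, cells given NMN, and control cells (Control). LPS is lipopolysaccharide, which comes from bacteria and stimulates microglia through Toll-like receptors, and NMN is nicotinamide mononucleotide, a precursor of NAD. Doses and times are not given in the sources used here, and all 4 groups are 1 cell line. The labels call the cell type macroglia. Of 12 microglial and macrophage markers, 12 were listed and 10 of them in all 12 libraries, with Cx3cr1 and P2ry12 in some. Of 5 astrocyte markers 2 were listed, with 1 in all 12 libraries and Gfap in some, while Aqp4, Slc1a3 and Gja1 were in none. Of 4 oligodendrocyte markers 3 were listed, 2 of them in all 12 libraries, and Mog was in none. Listing alone gives no level. Of the other marker sets, 1 of 4 for neurons and 2 of 3 for endothelium were listed, each in all 12 libraries. For T and B cells 2 of 5 were listed, Cd4 and Cd79b, each in some libraries. Each file is a list of events without reads or levels, so sequencing depth is unknown and a cassette is either listed or not listed. A cassette that is skipped less cannot be told apart from one whose transcripts were too rare to be listed. The libraries listed 11911 to 12246 genes each. The labels do not tell if a group's 3 libraries were grown separately. The p-values therefore rest on the variation among these libraries, and that variation may be technical.

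When the spliceosome passes over several exons at once, the transcript loses them together. If the bases lost add up to a multiple of 3, the reading frame downstream is kept; otherwise it shifts, which often brings a premature stop codon and decay of the RNA. Blocks of variable exons are a known feature of adhesion molecules and of membrane phosphatases in immune cells, where they set the length and glycosylation of the part outside the cell.

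The exon pairs and runs on which the results turn are printed here with the skipped exons in capitals and 12 bases of each neighbouring exon in lower case. They were read from the GENCODE M21 transcript on GRCm38 whose exons and introns have the same lengths as the listed cassette, because the files' own positions are on a mouse assembly that they do not name. All bases shown are coding in that transcript and run 5′ to 3′. For genes on the minus strand that is the reverse of the order by position, in which exon lengths are given in the results.
The first 5 show blocks of known variable exons. Those of App, Ptprc, Dnm1l and Sirt2 were listed in all 12 libraries and that of Cd44 in 9. App encodes the amyloid precursor protein, Ptprc the leukocyte phosphatase CD45, Dnm1l the GTPase that divides mitochondria, Sirt2 a NAD-dependent deacetylase and Cd44 the hyaluronan receptor. Their positions on GRCm38 are chr16:85040251-85043743 for App, chr1:138116954-138120166 for Ptprc, chr16:16318445-16318841 for Dnm1l and chr2:102832483-102834335 for Cd44, all on the minus strand, and chr7:28767632-28772208 for Sirt2 on the plus strand.
App, exons of 168 and 57 nt: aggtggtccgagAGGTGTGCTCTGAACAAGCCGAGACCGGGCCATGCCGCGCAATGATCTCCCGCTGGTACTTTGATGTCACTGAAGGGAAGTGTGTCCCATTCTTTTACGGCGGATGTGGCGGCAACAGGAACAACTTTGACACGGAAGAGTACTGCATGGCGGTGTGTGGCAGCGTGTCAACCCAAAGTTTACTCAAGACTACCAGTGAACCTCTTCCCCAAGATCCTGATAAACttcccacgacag
Ptprc, exons of 147 and 72 nt: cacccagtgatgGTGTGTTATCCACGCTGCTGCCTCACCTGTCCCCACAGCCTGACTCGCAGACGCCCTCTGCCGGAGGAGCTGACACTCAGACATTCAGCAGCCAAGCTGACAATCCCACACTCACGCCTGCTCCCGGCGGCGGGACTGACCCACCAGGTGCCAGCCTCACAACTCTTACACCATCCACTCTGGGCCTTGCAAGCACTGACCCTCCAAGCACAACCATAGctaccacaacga
Dnm1l, exons of 78 and 33 nt: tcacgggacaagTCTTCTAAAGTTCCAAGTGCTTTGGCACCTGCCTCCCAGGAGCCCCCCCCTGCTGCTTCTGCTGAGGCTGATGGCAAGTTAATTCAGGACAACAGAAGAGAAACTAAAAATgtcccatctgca
Sirt2, exons of 47, 49 and 114 nt: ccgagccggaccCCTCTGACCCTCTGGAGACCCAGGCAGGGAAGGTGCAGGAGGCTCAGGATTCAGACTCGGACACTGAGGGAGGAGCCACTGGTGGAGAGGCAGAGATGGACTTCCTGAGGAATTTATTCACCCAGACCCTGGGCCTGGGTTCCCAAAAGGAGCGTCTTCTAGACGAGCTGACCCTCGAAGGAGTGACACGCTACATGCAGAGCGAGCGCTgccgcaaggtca
Cd44, exons of 102 and 90 nt: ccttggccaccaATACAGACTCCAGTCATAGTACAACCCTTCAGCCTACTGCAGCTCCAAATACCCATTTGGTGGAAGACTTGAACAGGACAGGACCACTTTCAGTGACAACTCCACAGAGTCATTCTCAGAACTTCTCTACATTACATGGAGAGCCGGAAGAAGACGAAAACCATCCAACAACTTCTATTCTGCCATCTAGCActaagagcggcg
The next set shows cassettes whose listing differed between groups. Irf7 encodes the transcription factor that drives type I interferon genes, Ntng2 the membrane-anchored netrin-G2 of neurons and Mapk14 the stress kinase p38 alpha. They lie at chr7:141264223-141264559 (Irf7), chr2:29198814-29200948 (Ntng2) and chr7:97558131-97565300 (Aamdc) on the minus strand. Those of Mapk14 lie at chr17:28728904-28737090 and chr17:28728904-28740759 on the plus strand.
Irf7, exons of 67 and 93 nt: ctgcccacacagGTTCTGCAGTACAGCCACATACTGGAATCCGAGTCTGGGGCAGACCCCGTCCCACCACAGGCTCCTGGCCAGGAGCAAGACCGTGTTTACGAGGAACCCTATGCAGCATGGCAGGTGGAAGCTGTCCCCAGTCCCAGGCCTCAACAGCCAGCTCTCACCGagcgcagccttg
Ntng2, exons of 75 and 102 nt: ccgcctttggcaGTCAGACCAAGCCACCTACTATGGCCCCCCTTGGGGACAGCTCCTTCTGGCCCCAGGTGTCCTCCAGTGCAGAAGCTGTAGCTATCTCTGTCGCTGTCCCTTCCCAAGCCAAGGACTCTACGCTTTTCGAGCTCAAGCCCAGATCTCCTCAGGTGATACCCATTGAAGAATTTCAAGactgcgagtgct
Aamdc, exons of 150 and 96 nt: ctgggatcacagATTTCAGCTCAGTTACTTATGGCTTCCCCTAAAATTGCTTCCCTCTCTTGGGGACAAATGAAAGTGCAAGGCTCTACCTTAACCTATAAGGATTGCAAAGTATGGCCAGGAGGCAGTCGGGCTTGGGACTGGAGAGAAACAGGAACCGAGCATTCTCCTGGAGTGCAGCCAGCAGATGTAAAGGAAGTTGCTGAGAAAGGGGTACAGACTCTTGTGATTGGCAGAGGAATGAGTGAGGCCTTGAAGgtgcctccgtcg
Mapk14, nearer exon pair of 72 and 80 nt: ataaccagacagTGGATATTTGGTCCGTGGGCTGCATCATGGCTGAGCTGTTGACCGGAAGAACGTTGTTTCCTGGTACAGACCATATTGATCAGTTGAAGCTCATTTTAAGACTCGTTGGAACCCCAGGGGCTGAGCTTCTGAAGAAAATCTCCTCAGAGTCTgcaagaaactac
Mapk14, farther exon pair of 72 and 80 nt: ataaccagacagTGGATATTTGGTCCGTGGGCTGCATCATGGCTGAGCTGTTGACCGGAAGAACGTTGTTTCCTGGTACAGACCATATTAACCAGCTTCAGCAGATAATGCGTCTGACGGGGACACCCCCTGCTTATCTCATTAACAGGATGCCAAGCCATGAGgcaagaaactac
The 2 Mapk14 cassettes share their first exon. Their second exons have the same length of 80 nt but lie at different places, and 39 of the 80 bases (48.8%) are the same when the exons are laid side by side. The App pair is the block known to encode the Kunitz protease inhibitor domain and the short segment after it.

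Most cassettes were small. Of the 4896, 3635 (74.2%) held 2 exons, 793 held 3 and 246 held 4. The median span from the first to the last skipped base was 2490.5 nt, with quartiles of 1100 and 6421.5 nt, and the median number of exon bases skipped was 276 nt. Single skipped exons in the same catalogues had a median span of 115 nt, a difference that the class itself fixes.

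**Figure D1:**
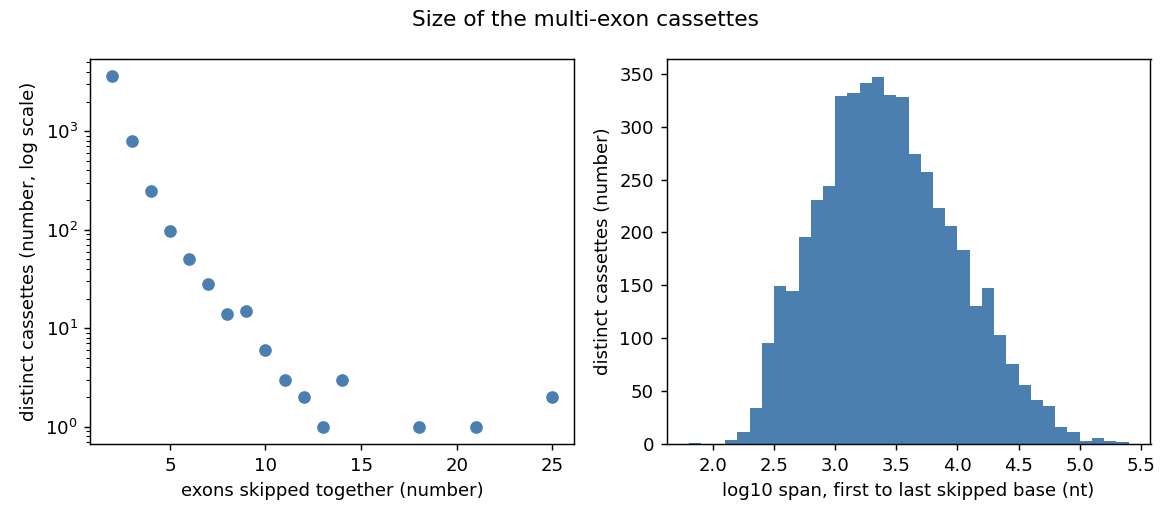
Left, the number of distinct cassettes (log scale) against the number of exons they hold. Right, the distribution of the span from first to last skipped base (log10 nt). The number falls from 3635 cassettes of 2 exons to 2 cassettes of 25 exons, and the spans centre near the median of 2490.5 nt.

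The longest runs were few. The longest were those of Dip2c and Stag1 with 25 exons each, Chd4 with 21, Zan with 18, and Ago2 and Anpep with 14. Another run of 14 exons, in Fnip2, was in 1 Control library and is not described further. Stag1 encodes a cohesin subunit, Chd4 a chromatin remodeller and Ago2 the argonaute protein that cuts targets of small RNAs. None of the first 6 runs had a skipping transcript in GENCODE M21, although 5 of them (all but that of Anpep) had the exon run itself. The Ago2 run was listed in 10 libraries (1 LPS+NMN, 3 LPS, 3 NMN and 3 Control), that of Dip2c in 7 and that of Stag1 in 6, while those of Chd4, Zan and Anpep were each in 1.
The Zan run had an unusual regularity. Zan encodes zonadhesin, a sperm protein that binds the egg coat. Its 18 skipped exons alternated between 142 nt and 218 nt, with a single exon of 209 nt out of step. It spanned 17819 nt and was listed in 1 LPS+NMN library.
The widest cassettes by span were those of Fgf13 (201561 nt, 2 exons), Stag1 (175026 nt), Mitf (169011 nt, 5 exons) and Ctif (165477 nt, 9 exons). Fgf13 encodes an intracellular binding partner of sodium channels and Mitf a transcription factor of pigment and myeloid cells. Those of Fgf13, Mitf and Ctif were each in 1 library and matched no annotated exon run.

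Cassettes were unevenly spread over genes. Of the 2399 genes, 1319 (55.0%) had 1 cassette, 188 had 5 or more and 25 had 10 or more, and 231 genes had a cassette in every library. Cassettes of 1 gene are not independent: 3189 of them (65.1%) overlapped another cassette of the same gene, and 404 positions were listed in both forms.
Kcnb2, a voltage-gated potassium channel gene, had the most, with 34 cassettes, none of which matched an annotated exon run. A pair of 237 and 150 nt under this name was listed on the minus strand, whereas GENCODE M21 places the gene on the plus strand. Whether such cassettes belong to transcripts of the channel gene was not tested. Cassettes listed under Kcnb2 numbered 3, 19 and 8 in LPS+NMN, 4, 13 and 14 in LPS, 4, 11 and 9 in NMN, and 5, 2 and 1 in Control libraries. The treated groups overlapped Control, and the difference of LPS against Control was 1.62 on the log2(cassettes + 1) scale (SE 0.571, limma adjusted p = 0.532).
The next 7 genes were Ccdc136 with 21 cassettes, Luc7l2 with 17, Mindy3 and Mtf2 with 16 each, Trim29 with 14, and Fbxo34 and Rbm6 with 12 each. Luc7l2 and Rbm6 encode splicing factors, Mindy3 a deubiquitinase, Mtf2 a partner of the Polycomb repressor and Fbxo34 an F-box protein of ubiquitin ligases. They differed in how much of their variety is annotated. In Mindy3, 13 of 16 cassettes had an annotated exon run and 12 an annotated skipping transcript, and in Ccdc136 19 of 21 had an annotated run. In Mtf2 2 of 16, in Luc7l2 3 of 17 and in Trim29 none of 14 had one.

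The number of cassettes in a library did not separate the groups. LPS+NMN libraries listed 1207, 1217 and 1386 cassettes, LPS libraries 1278, 1211 and 1247, NMN libraries 1157, 1279 and 1399, and Control libraries 1559, 1379 and 1186. The means were 1270 ± 101 in LPS+NMN, 1245 ± 33.5 in LPS, 1278 ± 121 in NMN and 1375 ± 187 in Control (SD, n = 3 each). Every treated group overlapped Control, whose 3 libraries held both the largest list and one of the smallest.
The difference was -129 cassettes for LPS against Control (p = 0.4), -96.3 for NMN against Control (p = 0.5), -105 for LPS+NMN against Control (p = 0.7) and 24.7 for LPS+NMN against LPS (p = 0.9), by two-sided exact permutation tests that cannot give a p below 0.1. Adjusted over the 4 comparisons each p was 0.9. Over all 4 groups, the exact permutation test of F gave p = 0.641. As a share of all splicing events of the library, cassettes made up 6.90% to 7.90%.

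**Figure D2:**
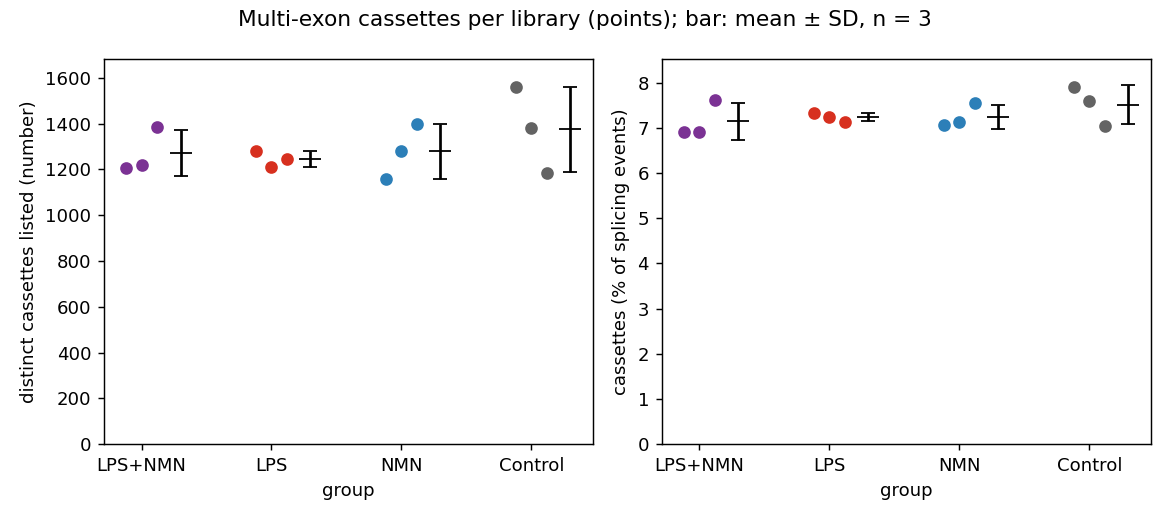
Distinct cassettes per library as a number (left) and as a percent of the library's splicing events (right), by group. Points are libraries and the bar beside them is the mean ± SD (n = 3). Control libraries span 1186 to 1559 and overlap each treated group.

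Libraries resembled each other about as much within a group as between groups. Of the cassettes listed in either library of a pair, 33.1% to 37.7% (median 34.8%) were in both for the 12 pairs within a group. For the 54 pairs across groups the share was 32.3% to 37.7% (median 34.5%). These shares are descriptions without a test.

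Cassettes recurred less from library to library than single skipped exons did. Of the distinct cassettes 2512 (51.3%) were listed in 1 library only and 251 (5.13%) in all 12, against 39.9% and 12.2% of the 20481 single skipped exons. Within a library, 83.9% ± 1.27 of its cassettes and 90.8% ± 0.781 of its single skipped exons were also listed in another library (SD, n = 12). The share was lower for cassettes in 12 of 12 libraries (two-sided exact sign-flip permutation test over libraries, p = 0.000488, the smallest the test can give). Adjusted over 3 measures this sign-flip p was 0.000732, but 1 of the 3 is the span, which the class itself fixes. Libraries share events, so the 12 differences are not fully independent.
Recurrence went together with annotation. The exon run of a cassette was found in GENCODE M21, in the same gene and with the same exon and intron lengths, for 3221 cassettes (65.8%), and an annotated transcript that skips it for 1528 (31.2%). Among cassettes of 1 library 13.8% had an annotated skipping transcript. The share was 36.0% for those in 2 to 5 libraries, 64.8% for those in 6 to 11 and 87.3% for those in all 12.

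**Figure D3:**
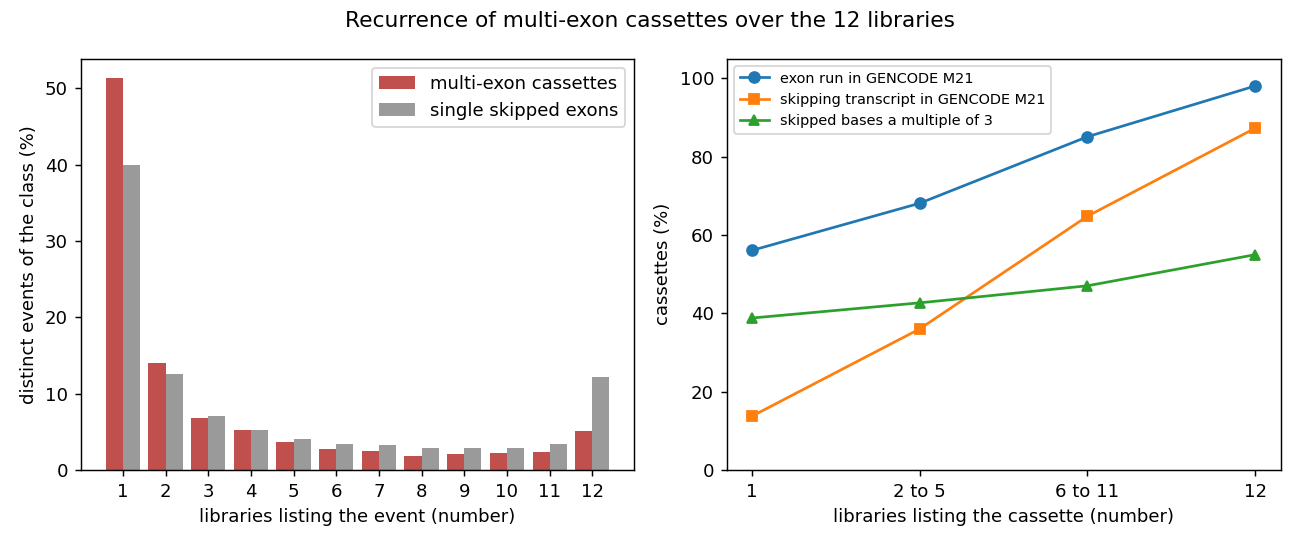
Left, the percent of distinct multi-exon cassettes (red) and single skipped exons (grey) listed in each number of libraries. Right, for cassettes in 1, 2 to 5, 6 to 11 or 12 libraries, the percent with an annotated exon run, with an annotated skipping transcript, and with skipped bases that add up to a multiple of 3. Each share rises with the number of libraries, from 13.8% to 87.3% for annotated skipping.

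Counted library by library, 61.9% ± 1.54 of the cassettes that a library shared with another had an annotated skipping transcript, against 13.8% ± 2.89 of those it alone listed (SD, n = 12). Shared cassettes held 2 exons in 78.7% ± 0.918 and own ones in 71.4% ± 2.43, and the skipped bases were a multiple of 3 in 47.3% ± 1.36 of shared and 38.7% ± 3.69 of own cassettes. Among coding runs those shares were 56.8% ± 1.46 and 49.7% ± 7.32. That last difference, of 7.09 percentage points, was 2.85 where shared meant listed in 2 to 5 libraries. The libraries share these cassettes, so the values restate the pooled shares and carry no test. They were added after the data were seen.

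Whether a block of exons keeps the reading frame depends on their sum. Skipped bases added up to a multiple of 3 in 2053 cassettes (41.9%), and in 1170 of the 2232 (52.4%) whose exons are all coding in the annotation. The share of multiples of 3 was 38.8% among cassettes of 1 library, 42.7% in 2 to 5 libraries, 47.0% in 6 to 11 and 55.0% in all 12. For coding runs those shares were 49.7%, 52.5%, 54.2% and 64.8%.
Among the 1585 coding cassettes of 2 exons, 400 (25.2%) had exons that are each a multiple of 3. In 433 more (27.3%) neither exon was, but their sum was, so that skipping the pair keeps a frame that skipping either exon alone would shift. The Irf7 pair of 93 and 67 nt shifts the frame, as do the Mapk14 pairs, whereas the App, Ptprc, Dnm1l, Ntng2 and Aamdc pairs and the Sirt2 run of 210 nt keep it. Of the 3 Sirt2 exons, that of 114 nt is the one whose length is a multiple of 3.
Against single skipped exons of the same libraries the difference was small. Within a library the skipped bases were a multiple of 3 in 45.9% ± 1.44 of cassettes and 44.7% ± 0.551 of single skipped exons. These shares count all events, coding or not. The share was higher for cassettes in 10 of 12 libraries (exact sign-flip permutation test, p = 0.0107, also after adjustment over 3 measures). Libraries share events, so these differences are not fully independent either. Over the distinct events the shares were 41.9% of cassettes and 41.2% of single skipped exons. By the same exact test the difference was 0.289 percentage points in genes that held both classes (p = 0.577) and -0.285 for approximate forms (p = 0.797).
Many exons of the cassettes were also skipped singly. In 2551 cassettes (52.1%) every exon was also listed as a single skipped exon, in 1275 some were and in 1070 (21.9%) none was.

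Among the 251 cassettes listed in all 12 libraries, the longest were those of Uso1, a vesicle tethering factor (12 exons), Ipo7, a nuclear import receptor (10 exons), Mindy3 (7 exons), Hpf1, a cofactor of PARP enzymes (5 exons), Clk4, a kinase of splicing factors (4 exons), and Crtc1, a CREB coactivator (4 exons).
Of 35 listed genes of cytoskeleton, adhesion and membrane scaffolds, chosen because they are known for variable exons, 18 (51.4%) had a cassette, against 16.8% of all genes listed. This choice was made with earlier results of these data known, and the share is a description. In Cd44, 11 nested cassettes were built from 7 exons of 207, 90, 102, 126, 120, 117 and 114 nt in order of position, each a multiple of 3. They lie on chromosome 2 between positions 102661675 and 102673294 of the files' assembly.
Cd44 cassettes numbered 1, 5 and 9 in LPS+NMN, 5, 7 and 3 in LPS, 1, 5 and 7 in NMN, and 7, 5 and 1 in Control libraries, and the groups overlapped throughout. The pair of 90 and 102 nt was in 9 libraries (2 LPS+NMN, 3 LPS, 2 NMN and 2 Control), and the whole run of 7 exons in 7. The pair of 126 and 120 nt and the 2 longer runs that end with it were in 2 libraries, LPS+NMN replicates 2 and 3. All 11 had an annotated exon run and an annotated skipping transcript.

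**Figure D4:**
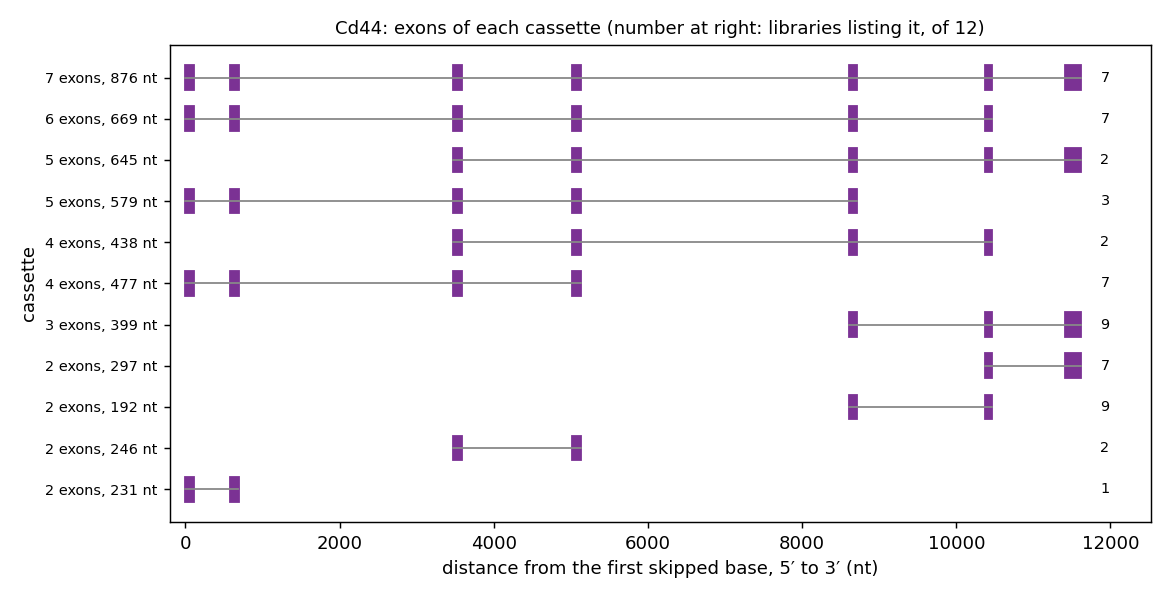
Exons (boxes, to scale) of the 11 Cd44 cassettes, placed by distance from the first skipped base in the direction of transcription (nt). Numbers at the right give the libraries listing each, from 1 to 9 of 12; all 11 use the same 7 exons.

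In Ptprc the pair of 72 and 147 nt was in all 12 libraries. A further exon of 24 nt took part in 2 cassettes, both in Control replicate 3 alone. Abi1, a regulator of actin branching, had 2 cassettes in all 12 libraries, pairs of 87 and 174 nt and of 87 and 177 nt that differ by 1 codon, and Wnk1, a kinase of ion transport, had the pair of 285 and 462 nt in all 12.
Of 32 listed genes of endocytosis and vesicle traffic 11 had a cassette. The App block was in all 12 libraries, as was the Dnm1l pair of 33 and 78 nt. Another Dnm1l pair, of 47 and 39 nt, was in 10 libraries (3 LPS+NMN, 2 LPS, 2 NMN and 3 Control). Sec31a, a coat protein of vesicles leaving the endoplasmic reticulum, had 2 separate pairs in all 12, of 39 and 336 nt and of 78 and 39 nt.
Of 60 listed splicing factors and spliceosome genes 23 had a cassette, 68 cassettes in all. Clk4 had 5 cassettes, 3 of them in all 12 libraries. They nest within 4 exons of 161, 67, 78 and 59 nt. In Ewsr1, an RNA-binding protein, a pair of 33 and 35 nt was in all 12, and Rbm25, a splicing regulator, had the pair of 64 and 118 nt in all 12.
Of 30 listed genes of NAD synthesis and use 8 had a cassette, 12 cassettes in all. Sirt2 held the 2 that were in all 12 libraries: the run of 47, 49 and 114 nt printed above, and the last pair of that run without the first exon, whose 163 nt shift the frame. Each group therefore listed the same Sirt2 cassettes in 3 of 3 libraries. Tnks2, a poly-ADP-ribose polymerase that consumes NAD, had a pair of 92 and 79 nt listed in 1 of 3 LPS+NMN, 3 of 3 LPS, 0 of 3 NMN and 3 of 3 Control libraries. Nmrk1, the kinase of nicotinamide riboside, and Nadk, which makes NADP, had cassettes in 5 and 4 libraries.
Of 35 listed genes of ferroptosis, iron and glutathione 5 (14.3%) had a cassette, near the 16.8% of all genes. Dhodh, a mitochondrial enzyme of pyrimidine synthesis that limits lipid peroxidation, had a pair of 160 and 154 nt in 9 libraries (2 LPS+NMN, 2 LPS, 2 NMN and 3 Control). Slc7a11, the cystine importer, had 4 cassettes, each in 1 library: 1 in LPS+NMN, 1 in NMN and 2 in Control.
The DNA repair and chromatin lists had 14 genes with a cassette each, of 35 and 38 listed. Pairs in all 12 libraries were those of the SMC proteins Smc1a (189 and 113 nt) and Smc6 (118 and 106 nt), the chromatin remodeller Smarca2 (54 and 106 nt) and Setd5 (225 and 193 nt), a SET domain protein. The last matched no annotated exon run.

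Presence was next compared by group. Of the 4896 cassettes 2675 (54.6%) were listed in 1 group only and 952 (19.4%) in all 4. Of the 2675, 2512 were in 1 library only, so most were in 1 group because they were in 1 library. The same shares over all splicing events are not given here, and the 54.6% is no measure of group specificity. Listing in all 3 libraries of 1 group and none of the other 9 was seen for 3 cassettes in LPS+NMN (0.0613% of all cassettes), 2 in LPS (0.0408%), 4 in NMN (0.0817%) and 1 in Control (0.0204%). Over all splicing events the shares were 0.0164% in LPS+NMN, 0.0365% in LPS, 0.042% in NMN and 0.1% in Control. Counts this small are read as a description of single cassettes. The LPS+NMN ones were in 9430038I01Rik, Fbxo34 and Flt3l, a growth factor of dendritic cells. Those of LPS were in Dhrs4, a carbonyl reductase, and Fyn, a Src family kinase. Those of NMN were in Ccdc163, Gcsh, a part of the glycine cleavage system, Luc7l2 and Sec14l2, a lipid transfer protein. That of Control was in Cul3, a scaffold of ubiquitin ligases. Some of these differed from another listed cassette of the gene only by an exon end. The Sec14l2 pair of 76 and 414 nt stood beside pairs of 76 and 127 nt and of 76 and 226 nt. Sec14l2 cassettes averaged 1 in LPS+NMN, 1.67 in LPS, 1.33 in NMN and 1 in Control libraries. The Gcsh pair of 80 and 167 nt stood beside a pair of 80 and 80 nt. In 9430038I01Rik the run of 185, 63 and 162 nt stood beside a run of 163, 63 and 162 nt.
Listing in all 9 treated libraries and no Control library was seen for 3 more (0.0613% of cassettes, against 0.0602% of all splicing events), so the cassettes were at the background. They were the Irf7 pair of 93 and 67 nt, the Ntng2 pair of 102 and 75 nt, and a Slfn4 pair of 179 and 1040 nt on chromosome 11 at 83076094 to 83078390 of the files' assembly. Slfn4 is a Schlafen family gene that interferon induces in mouse myeloid cells. Irf7 and Slfn4 as genes were listed in all 12 libraries, whereas Ntng2 was listed in the 9 treated libraries only, so its cassette could not be listed in Control.
In Irf7 the listing differed between groups for some blocks and not for others. Its 4 cassettes combine exons of 93 nt, 67 nt (or a longer form of 163 nt) and 59 nt. The run of all 3 and the pair of 163 and 59 nt were in all 12 libraries, whereas the pair of 93 and 67 nt was in 9 and that of 93 and 163 nt in 7 (3 LPS+NMN, 2 LPS, 2 NMN and 0 Control). Single skipped exons of Irf7 numbered 10.7 ± 2.31 in LPS+NMN, 9.33 ± 2.31 in LPS, 9.67 ± 2.08 in NMN and 1 ± 0 in Control libraries (SD, n = 3). The number of its cassettes was 4, 4 and 4, then 3, 4 and 4, then 4, 4 and 3 in LPS+NMN, LPS and NMN, and 2, 2 and 2 in Control, with limma adjusted p of 0.689, 0.679 and 0.759 against Control.

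**Figure D5:**
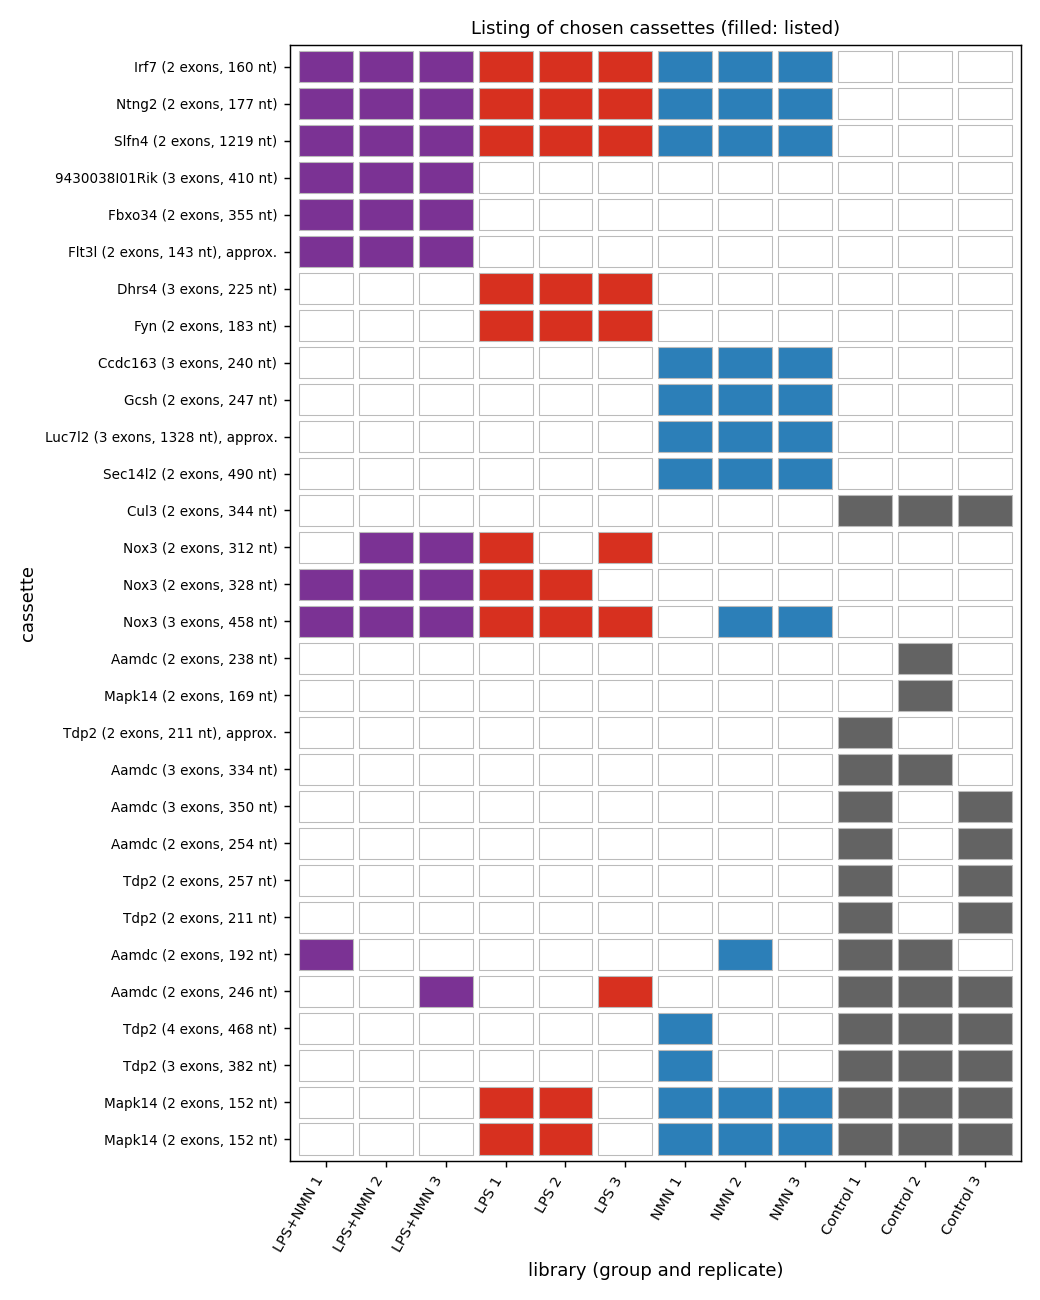
Listing of 30 cassettes (down the plot, with number of exons and skipped bases) in the 12 libraries (columns, by group); filled cells are listed. The first 3 fill all 9 treated libraries and no Control library, the next 10 fill the 3 libraries of 1 group, and the rest are all cassettes of Nox3, Aamdc, Tdp2 and Mapk14.

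LPS was compared with Control to see which cassettes were listed in cells given LPS alone. Of 3510 cassettes listed in at least 1 of the 6 libraries, 15 (0.427%) were in all 3 LPS and no Control libraries and 25 (0.712%) in all 3 Control and no LPS libraries. Over all splicing events the shares were 0.499% and 0.804%, so the cassettes stood near the background in each direction. Among cassettes in exactly 3 of these 6 libraries the shares were 5.26% and 8.77%, against 5.84% and 9.42% of all splicing events. With 3 libraries against 3, leaving out 1 library raised these counts to between 20 and 51 and between 42 and 107, since fewer listings are then needed.
Besides Irf7, Ntng2 and Slfn4, the LPS side held a run of 3 exons of Nox3 and a longer Ntng2 run (8 libraries each). It also held a pair of 289 and 88 nt of Oas1c, of the oligoadenylate synthetase family that senses double-stranded RNA. The Oas1c pair was in 2 LPS+NMN, 3 LPS, 3 NMN and 0 Control libraries, and Oas1c is one of a family of similar neighbouring genes, so that reads could be assigned to another member. The Control side held Cul3 (146 and 198 nt), 2 nested runs of Tdp2, a pair of 21 and 126 nt of Arhgef6, and cassettes of Get1 and Gng12.
In the number of cassettes per gene, tested with limma over 1124 genes, LPS gave 2 genes higher (0.178%) and 2 lower (0.178%) than Control. Ntng2 had 3, 3 and 2 cassettes in LPS and 0 in each Control library (difference 1.86 on the log2 scale, SE 0.314, limma adjusted p = 0.01), where the gene has no event of any type. Its counts of 0 in Control were thus fixed, and its call is read as a description. Nox3, a superoxide-producing NADPH oxidase, had 3, 2 and 2 in LPS and 0 in each Control library (1.72, SE 0.329, limma adjusted p = 0.024), with the gene itself listed in all 12. These groups did not overlap.
The 2 lower genes did not overlap either, and both were listed in all 12 libraries. Aamdc had 0, 0 and 1 cassettes in LPS and 5, 4 and 3 in Control (-1.97, SE 0.398, limma adjusted p = 0.0303). Tdp2, which frees DNA ends from trapped topoisomerase, had 0 in each LPS library and 5, 2 and 4 in Control (-2.16, SE 0.451, limma adjusted p = 0.032). Tdp2 had cassettes in 4 libraries, each Control library and NMN replicate 1. It therefore passed the filter of at least 3 libraries only through Control, the group where it is high. Its call is read as a description.
Each of the 4 calls was lost when any of several libraries was left out. Ntng2 lost it without LPS replicates 1 or 2 or Control replicates 1 or 3 (adjusted p 0.0645 to 0.089), and Nox3 without any LPS or Control library (0.0517 to 0.125). Aamdc lost it without LPS replicates 1 or 2 or any Control library (0.0997 to 0.221), and Tdp2 without any LPS library or Control replicates 1 or 3 (0.112 to 0.256). The Ntng2 and Nox3 calls were also lost in a fit of these 6 libraries alone, and the Aamdc and Tdp2 calls with a pseudocount of 0.5 in place of 1 or without trend and robust moderation.

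NMN alone was compared with the same Control libraries. Of 3476 cassettes in these 6 libraries, 25 (0.719%) were in all NMN and no Control libraries and 15 (0.432%) the other way round, against 0.592% and 0.634% of all splicing events. Of cassettes in exactly 3 of these libraries they were 8.42% and 5.05%, against 6.94% and 7.43% of all splicing events. The NMN side again held Irf7, Ntng2 and Slfn4. It also held the Oas1c pair, a pair of 285 and 117 nt of the class I histocompatibility gene H2-Q5 (3 LPS+NMN, 2 LPS, 3 NMN and 0 Control) and a pair of 148 and 141 nt of Kctd2 with the same listing. H2-Q5 belongs to a family of close copies, so its reads too may be shared. GENCODE M21 types H2-Q5 as a polymorphic pseudogene, and its pair of 285 and 117 nt matched no annotated exon run. The Control side held Cul3, 2 nested cassettes of Kctd20, a run of Nav2, the Aamdc pair printed above and a pair of Ap3b1, a subunit of the AP-3 vesicle coat.
By limma 1 gene was higher (0.089%) and 1 lower (0.089%). Ntng2 had 3, 3 and 2 cassettes in NMN and 0 in each Control library (1.86, SE 0.314, limma adjusted p = 0.01). Since the gene was not listed in Control, these counts of 0 were fixed and the call is read as a description. Aamdc had 0, 1 and 0 in NMN and 5, 4 and 3 in Control (-1.97, SE 0.398, limma adjusted p = 0.0455).
Both calls were lost under several alternatives. Ntng2 lost it without NMN replicate 1 or any Control library (adjusted p 0.06 to 0.0753). Aamdc lost it without NMN replicates 1 or 3, LPS+NMN replicate 1, LPS replicate 2 or any Control library (0.0549 to 0.503). In a fit of these 6 libraries alone neither was called, and with the replicate number as a block the limma adjusted p of Aamdc was 0.0513. Oas1c, with 3, 3 and 4 cassettes in NMN and 0 in each Control library, missed the threshold narrowly (2.11, SE 0.446, limma adjusted p = 0.0506).

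LPS+NMN was also compared with Control. Of 3522 cassettes in these libraries, 22 (0.625%) were in all LPS+NMN and no Control libraries and 25 (0.710%) the other way round, against 0.615% and 0.778% of all splicing events. Of cassettes in exactly 3 of the 6 libraries they made up 6.67% and 7.58%, against 7.07% and 8.95% of all splicing events. The 6 named on the LPS+NMN side were Irf7, 2 of Ntng2, Slfn4, Nox3 and H2-Q5, and on the Control side Cul3, 2 of Tdp2, Kctd20, Arhgef6 and Get1. The comparisons with Control share the same 3 libraries, so these lists are not independent.
By limma 2 genes were higher (0.178%) and 2 lower (0.178%). Ntng2 had 2, 3 and 3 cassettes in LPS+NMN and 0 in each Control library, as did Nox3 (each 1.86, with SE 0.314 for Ntng2 and 0.329 for Nox3, limma adjusted p = 0.00941). Ntng2 as a gene was not listed in Control, so its counts of 0 there were fixed and its call is a description. Tdp2 had 0 in each LPS+NMN library and 5, 2 and 4 in Control (-2.16, SE 0.451, limma adjusted p = 0.0427). Here too Tdp2 passed the filter only through Control, and its call is a description.
Mapk14 relays Toll-like receptor signals to cytokine genes. Its cassettes numbered 0 in each LPS+NMN library and 2, 3 and 2 in Control (-1.72, SE 0.373, limma adjusted p = 0.0486). The LPS libraries had 2, 2 and 0 and the NMN libraries 2 in each. The listing rests on the 2 pairs printed above, which were always listed together: in 0 of 3 LPS+NMN, 2 of 3 LPS, 3 of 3 NMN and 3 of 3 Control libraries. The exons beside the 2 pairs have the same inner ends, so skipping either pair gives the same junction. The pairs differ only in which exon of 80 nt the longer transcript holds. The Mapk14 numbers tested by limma therefore count 1 skipping junction as 2 cassettes. Whether the call holds with that junction counted as 1 was not tested. Another pair, of 90 and 79 nt, was in 1 Control library. The gene was listed in all 12 libraries, with 6 ± 1 other events in LPS+NMN and 4.67 ± 2.89 in Control libraries (SD, n = 3).
Ntng2 and Nox3 each lost the call without LPS+NMN replicates 2 or 3 or Control replicates 1 or 3 (adjusted p 0.0565 to 0.0801). Tdp2 lost it without any LPS+NMN library or Control replicates 1 or 3 (0.109 to 0.236). Mapk14 lost it without any single LPS+NMN, NMN or Control library (0.0633 to 0.221). None of the 4 was called in a fit of these 6 libraries alone.

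LPS+NMN was compared with LPS to ask which cassettes differed in listing when NMN was given with LPS. Of 3381 cassettes, 11 (0.325%) were in all LPS+NMN and no LPS libraries and 11 (0.325%) the other way round, against 0.464% and 0.449% of all splicing events. Of cassettes in exactly 3 of those libraries they made up 3.78% and 3.78%, against 5.52% and 5.34% of all splicing events. The LPS+NMN side held a run of 4 exons of the interferon-inducible gene Ifi207, listed in 3 LPS+NMN, 0 LPS, 3 NMN and 0 Control libraries. It also held a run of 5 exons of Hpf1 and a pair of 88 and 31 nt of Arrb2, the arrestin of many membrane receptors. Each was in 3 LPS+NMN, 0 LPS, 3 NMN and 2 Control libraries. The Hpf1 run ends with an exon of 118 nt. The same run with a last exon of 88 nt was in all 12 libraries, those of LPS included. Cassettes of Emc8, Pwwp2a and Ap4b1 were also on the LPS+NMN side.
The LPS side held a pair of 184 and 156 nt of Gtf2ird1 (0 LPS+NMN, 3 LPS, 1 NMN and 3 Control) and a pair of 134 and 96 nt of U2af1l4, a splicing factor (0, 3, 0 and 2 libraries in the same order). A pair of 47 and 90 nt of the kinase gene Dmpk was in 0, 3, 1 and 2 libraries. Cassettes of Sidt2, Tafazzin and Dnase1l1 followed.
No gene passed the limma threshold in either direction (0% and 0%). At an unadjusted limma p under 0.05 there were 47 of the 1124 genes tested, a share below that threshold. The smallest limma adjusted p was 0.464. For Mapk14 the difference was -1.06 (SE 0.373, adjusted p = 0.79), with 0 in each LPS+NMN library and 2, 2 and 0 in LPS libraries.

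The gene lists were read against all 1124 genes tested, whose median difference was 0 in each comparison. Of the 9 lists, no member was called except Mapk14 in the list of Toll-like receptor and NF-kB signalling. In the interferon list, 14 of 51 listed genes had a cassette and 7 were tested. Their median difference was 0.19 for LPS, 0.33 for NMN and 0.47 for LPS+NMN, each against Control, and 0.49 for LPS+NMN against LPS. The cassettes of the whole interferon list numbered 13 to 14 in LPS+NMN, 8 to 15 in LPS, 11 to 12 in NMN and 6 to 10 in Control libraries. None of the 7 tested genes was called by limma in any comparison. Xaf1, an interferon-induced regulator of cell death, had a pair of 196 and 89 nt in all 12 libraries.
In the Toll-like receptor list 9 of 38 listed genes had a cassette. Tlr7, the sensor of single-stranded RNA, had a pair of 68 and 81 nt in 3 LPS+NMN, 3 LPS, 2 NMN and 1 Control libraries. Tnip1, an inhibitor of NF-kB signalling, had a pair of 172 and 53 nt in 2 LPS+NMN, 3 LPS, 1 NMN and 1 Control libraries. Neither gene was called by limma in any of the 4 comparisons.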

How the data were processed

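Total RNA of 12 BV-2 libraries, 3 in each of 4 groups, was sequenced, and the authors deposited for each library a catalogue of transcript events (type, gene, positions, exon pattern and strand). The deposited values are event positions with no counts, levels or depth, and no source used here names the program that made them. Per the submitters' processing notes, GRCm38, BWA 0.7.12, MACS2 2.1.0 and HOMER were named, without a role. The positions did not match GRCm38 (61 of 4896 cassettes lay at the same place), so they are printed as deposited and were not converted.

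The 17893 lines of the exact and approximate multi-exon skipping types were collapsed to distinct cassettes. Of these lines 2388 repeated the form, gene, chromosome, start and end of another line of the library. Their exon patterns could differ, and 906 cassettes (18.5%) had more than 1 pattern. Exon numbers, skipped bases and annotation were then taken from the pattern listed in most libraries. Splicing events exclude transcript starts and ends. Exon runs were matched to GENCODE M21 by exon and intron lengths in the gene of the same name (2349 of 2399 genes by name and 29 through 1 RefSeq synonym), and no cassette had more than 1 matching place. A skipping transcript was an annotated one that joins the flanking exons directly.

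Cassettes per library were compared by exact permutation tests. Cassettes per gene were tested with limma 3.58.1 (R 4.3.3, trend and robust) on log2(cassettes + 1), a scale that understates changes of low values, with 8 residual degrees of freedom over 1124 genes that had a cassette in at least 3 libraries and values that were not all equal. Called means an adjusted p (Benjamini-Hochberg) under 0.05. Since the catalogues hold no counts, no count model was used. The limma step was tested on simulated data. Python 3.11.15 (pandas 2.3.3, scipy 1.17.1) was used for the rest.

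The members, gene lists and tests were chosen with earlier results of these data known. Named cassettes were those with the most exons, longest spans or most cassettes per gene, those separating the groups compared (up to 6 a direction), those in all 12 libraries with the most exons, genes called by limma and up to 4 members of each gene list. The cassettes listed in all 3 libraries of 1 group and no other, the remaining Cd44, Irf7 and Ptprc cassettes, Fnip2, Sec31a, Slc7a11 and Oas1c (as a gene) were picked after their values were seen. Alternatives changed the event forms, the key of a distinct cassette, the pseudocount, the filter, the moderation, the samples in the fit, a replicate block, a covariate and each library in turn.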

Additional observations from a re-analysis of the deposited data

How the results depend on the processing

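The files hold no reads, so depth is unknown and sets no interval, and 3 libraries a group limit all group comparisons. For cassettes per library, 3 libraries against 3 cannot give a p below 0.1, so the p-values of these pairs say nothing about stability. The NMN against Control difference was 2.67 cassettes for the approximate form, and LPS+NMN against LPS was -0.0928 as a percent of splicing events and -33.3 cassettes without LPS+NMN replicate 3; the causes were not tested. Leaving out 1 library at a time gave -224 to -37.2 for LPS, -191 to -4.17 for NMN and -199 to -12.5 for LPS+NMN against Control, -33.3 to 56.2 for LPS+NMN against LPS, and p = 0.142 to 0.970 over the 4 groups (exact permutation). Genes called by limma moved in number. Against the 2 higher and 2 lower of LPS, the counts were 1 and 0 with at least 2 cassettes in 3 libraries, 1 and 1 with the library's listed genes as a covariate, 0 lower with a pseudocount of 0.5, 0 lower without trend and robust moderation, and 0 higher in a fit of the 2 groups. Against the 1 and 1 of NMN, the counts were 2 and 0 with a pseudocount of 0.5, 2 higher without a filter, 3 higher for the exact form, and 0 lower with at least 2 cassettes, without moderation or in a fit of the 2 groups. Against the 2 and 2 of LPS+NMN, the counts were 5 and 7 without a filter, 0 and 0 in a fit of the 2 groups, 1 and 0 with the covariate, 1 lower with a pseudocount of 0.5, and 0 lower with at least 2 cassettes or without moderation. Single calls held in 7 (Mapk14) to 15 (Ntng2) of 20 alternatives. Leaving out a library gave 0 to 3 higher and 0 to 2 lower for LPS, 0 to 3 and 0 to 1 for NMN, 0 to 4 and 0 to 2 for LPS+NMN against Control, and 0 and 0 for LPS+NMN against LPS. Cassettes in all libraries of 1 group and none of the other rose in number by construction when a library was left out: 20 to 51 for LPS and 42 to 107 for Control, 33 to 76 for NMN and 32 to 83 for Control, 28 to 63 for LPS+NMN and 35 to 89 for Control, and 23 to 50 for LPS+NMN and 21 to 45 for LPS. Leaving out a library gave recurrence differences of -7.08 to -6.82 percentage points. The share of multiples of 3 differed by 1.03 to 1.44 points and the span by 1997 to 2013 nt. For approximate forms these were -9.07, -0.285 and 1874, and in genes with both classes -6.84, 0.289 and 2134, and the excess of frame-keeping coding runs among shared cassettes was 2.85 points when shared meant 2 to 5 libraries. Same-numbered libraries correlated at -0.03 to 0.0607 in their deviations, and libraries of different numbers at -0.0586 to 0.0356. Such weak values do not tell whether the numbers pair samples. With the replicate block limma called 2 higher and 2 lower for LPS, 2 and 0 for NMN, and 2 and 3 for LPS+NMN, each against Control.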
